A study of Homo sapiens with 31 samples.

Results

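Places in the nuclear genome at which AGO-bound RNA of human Huh-7.5 cells was found ligated to many different miRNAs were examined. Every target region in the deposited interaction table that did not lie on the mitochondrial chromosome was merged with the regions it overlapped by at least 1 base on the same strand, and the places were chosen by the number of different miRNAs ligated there, which had to be at least 5. Of 29772 nuclear places, 73 met this rule (0.245%). They held 690 of the 32712 interactions in the table, or 2.16% of the 31941 nuclear ones, with 142 of 530 miRNAs and 1035 of 34530 nuclear chimeric reads. That number, and the overlaps it rests on, are therefore given below as a description and are not tested.

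Huh-7.5 is a hepatoma cell line. The series contains 31 libraries of RNA cross-linked to AGO in these cells by ultraviolet light, 19 made by standard AGO-CLIP and 12 by CLEAR-CLIP, a variant in which the miRNA and its target can be joined into 1 chimeric read by T4 RNA ligase. For standard AGO-CLIP, the paper proposes that the RNA ligase I used to add the 3′ linker can form chimeras too. The standard libraries comprised 4 with LNA-122, 4 with miravirsen, both directed against miR-122, 4 labelled Mock, and 7 whose labels name no treatment. The CLEAR-CLIP libraries comprised 2 each of RNAse T1 with HSPC117 over-expression, RNAse A (high) with HSPC117 over-expression, RNAse A (low) with HSPC117 over-expression, RNAse A (low) with HSPC117 siRNA, RNAse A (low) alone and RNAse A (low) with T4 RNA ligase. The ligase was omitted from the other 10 CLEAR-CLIP libraries, and HSPC117 is a tRNA ligase of the cell that was manipulated in 8 of them. The table names no library. Thus no library or treatment could be compared, no replicate error can be given, and the intervals below, which are 95% Wilson intervals for shares and Newcombe intervals for differences, cover counting error only. Of 10 hepatocyte marker genes, all 10 had interactions (184 in total), whereas 0 of 4 immune and 0 of 4 fibroblast markers and 1 of 5 neuronal markers did.

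miRNAs are short RNAs that guide AGO proteins to other RNAs. In animal cells most of the recognition comes from the seed, bases 2 to 8 counted from the 5′ end of the miRNA, which pairs with a complementary stretch of the target, most effectively in 3′UTRs, and pairing of later bases can add to it. In a chimeric read the miRNA is named directly by its sequence, so an interaction can be assigned to a miRNA whether or not the target holds a seed match.

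The 15 miRNAs with the most interactions in the shared places are introduced first, although the results below rest on all 142. RefSeq (GRCh38.p14) sequences were matched for 115 of the 142 miRNAs, and for 13 of these 15, whose sequences are shown 5′ to 3′ with the seed in capitals. miR-186-5p and miR-320a complete the set.
miR-17-5p: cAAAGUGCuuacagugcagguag
miR-19a-3p: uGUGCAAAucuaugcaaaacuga
miR-27a-3p: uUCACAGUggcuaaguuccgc
miR-194-5p: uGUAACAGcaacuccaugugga
miR-16-5p: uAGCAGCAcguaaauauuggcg
miR-21-5p: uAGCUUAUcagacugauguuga
miR-26a-5p: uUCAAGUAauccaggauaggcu
miR-30a-5p: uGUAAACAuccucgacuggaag
miR-122-5p: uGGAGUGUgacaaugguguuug
miR-92a-3p: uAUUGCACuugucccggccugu
miR-196a-5p: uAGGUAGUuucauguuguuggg
miR-181b-5p: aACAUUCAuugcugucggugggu
miR-23a-3p: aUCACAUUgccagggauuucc
No pair of these 13 shared a seed. Over all 115 matched miRNAs in the shared places there were 93 different seeds, and 52 of the 73 places still held at least 5 different seeds when only matched miRNAs were counted.

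The 73 places lay on 18 chromosomes, 39 on the plus and 34 on the minus strand, and spanned 77 to 421 bases (median 125). By the annotation in the table, 37 lay outside genes, 15 in introns, 19 in exons of mRNAs and 2 in exons of noncoding transcripts. The median place had 7 miRNAs. The 13 places with 10 or more miRNAs held 293 interactions (42.5% of those in shared places), and 7 of the 13 lay outside genes and 6 in introns. Among mRNA exons the highest number was 9. At the limit of the rule, the 18 places with exactly 5 miRNAs were just inside and the 59 places with 4 were just outside. Canonical seed matches made up 9 of 90 interactions (10%) in the first set and 99 of 240 (41.2%) in the second, and 25 of the 90 but 118 of the 240 interactions lay in mRNA exons.

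**Figure D1:**
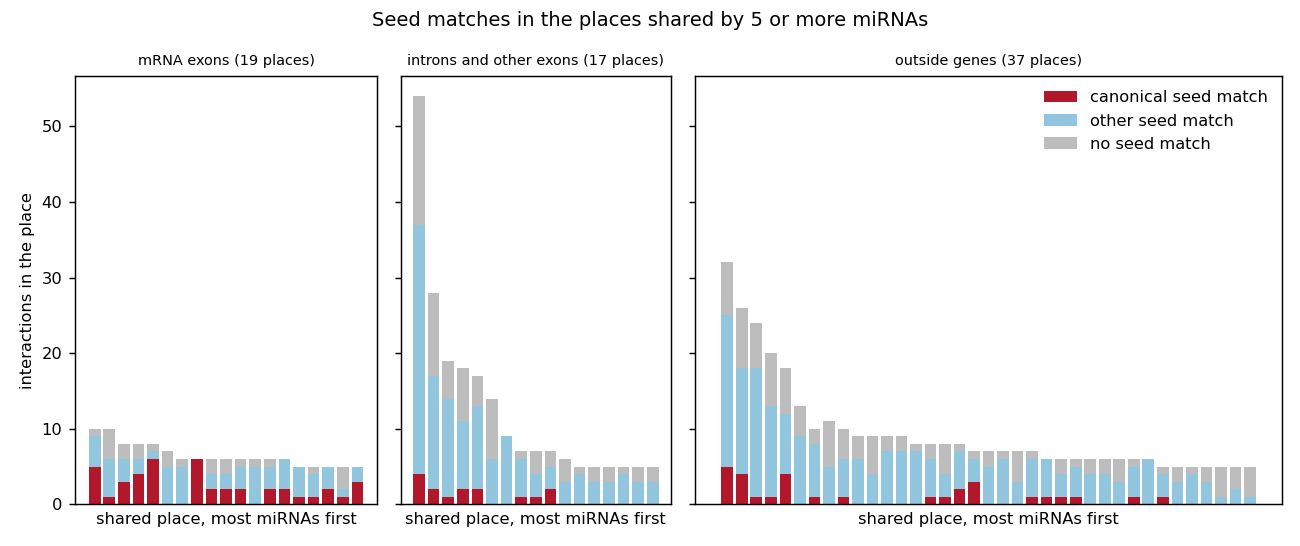
Interactions in each of the 73 shared places (y axis), one bar per place with the places with most miRNAs first, split by region and coloured by seed match. The tallest bars (54 interactions at most) lie in introns and outside genes and are mostly without a canonical match, whereas mRNA exon places stay at 10 interactions or fewer.

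Where the places lay was compared with the 29699 other nuclear places, counting each place once. Deep intergenic sites, which have no annotated gene nearby, made up 32 of 73 shared places (43.8%, 33.1 to 55.2), against 7157 of the others (24.1%), a difference of 19.7 percentage points (8.94 to 31.1, two-sided Fisher's exact test, adjusted p = 3.9e-04). Introns made up 15 of the shared places (20.5%, 12.9 to 31.2) and 41.5% of the others, a difference of −20.9 points (−28.6 to −10.3, Fisher's exact test, adjusted p = 3.4e-04). For 3′UTRs the shares were 10.96% in shared places and 11.5% in the others (adjusted p = 1, exact test), with an interval of the difference of −5.84 to 8.68 points. For coding sequence they were 8.22% and 12.4% (adjusted p = 0.43, exact test), with an interval of −8.56 to 4.44 points. A smaller share of shared places lay in introns and a larger share in deep intergenic sequence, while for the 2 mRNA regions no difference was detectable at this number of places. With at least 4 miRNAs per place, however, the 3′UTR share was 5.97 points higher in shared places (adjusted p = 0.046, exact test). The intron difference missed the threshold with at least 7 miRNAs per place (−14.4 points, adjusted p = 0.13, exact test) and among places with a gene symbol (−15.9 points, adjusted p = 0.095, exact test). Some places are neighbours, and the tests count them as independent. Places far apart may also resemble each other in sequence, which was not tested. For example, the same bases of miR-30a-5p, miR-30e-5p and miR-4279 were predicted to pair at chr5:71182519-71182746 and chr19:23975437-23975611. Joining neighbours leaves such places apart. With shared places less than 5000 bases apart counted as 1 (53 in all), the deep intergenic difference was 17.4 points (adjusted p = 0.011, exact test) and the intron difference −24.5 points (adjusted p = 8.6e-04, exact test).

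The interactions in the shared places differed from other nuclear interactions in how the miRNA met its target. A canonical match, meaning an 8mer, 7mer-m8, 7mer-A1, 6mer or offset 6mer in the 75-nt region downstream of the ligation point, was present in 88 of 690 interactions in shared places (12.8%, 10.5 to 15.5), against 9736 of 31251 elsewhere (31.2%). The difference was −18.4 points (−20.7 to −15.7, Fisher's exact test, adjusted p = 4.9e-28). No seed match of any kind, not even a mismatched or bulged one, was found for 202 interactions in shared places (29.3%, 26.0 to 32.8) and 14.6% of the others (difference 14.7 points, 11.4 to 18.2, Fisher's exact test, adjusted p = 1.0e-21). Each of the 5 canonical types had a lower share in shared places. 8mers made up 11 of 690 interactions (1.59%) in shared places and 6.97% elsewhere, 7mer-m8 matches 18 (2.61%) and 7.79%, 7mer-A1 matches 11 (1.59%) and 5.34%, 6mers 23 (3.33%) and 5.87%, and offset 6mers 25 (3.62%) and 5.19%. Mismatched offset 6mers, among the weakest variants listed, made up 10.1% of interactions in shared places and 5.47% elsewhere. The study predicted duplexes with pairing forced at seed positions where a seed match or variant was present. Groupings of these duplexes are thus not independent of the seed matches above. Class 4, the seed-independent group in the k-means grouping of predicted duplexes given in the table, held 117 interactions in shared places (16.96%) and 10.9% of the others (difference 6.08 points, 3.44 to 9.08, Fisher's exact test, adjusted p = 4.6e-06). These tests count interactions as independent, although those of 1 place share target sequence. With 1 interaction drawn at random per place, the canonical difference was −12.8 points (−19.9 to −2.50, adjusted p = 0.044, exact test), that for no seed match 9.91 points (adjusted p = 0.044), and that for class 4 was 2.72 points and missed the threshold (adjusted p = 0.45). These values rest on a single draw and can differ with another.

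The low share of canonical matches was found in introns and outside genes, while in mRNA exons no difference was detectable. This split was made after the values had been seen. In introns 15 of 205 interactions in shared places were canonical (7.32%, 4.48 to 11.7), against 30.9% of other intronic interactions. Outside genes 30 of 350 were canonical (8.57%, 6.07 to 11.97), against 26.5% elsewhere outside genes. In mRNA exons, in contrast, 43 of 124 were canonical (34.7%, 26.9 to 43.4), against 36.3% in other mRNA exon interactions, with an interval of the difference of −9.48 to 7.16 points. Of those 9276 others, 7714 lay at places with 1 miRNA (34.5% canonical). In mRNA exons at places with 2, 3 and 4 miRNAs the canonical shares were higher, at 44.7%, 44.1% and 51.7%. In exons of noncoding transcripts 0 of 11 were canonical, which allows a share of up to 25.9%. The odds ratio for a canonical match, shared places over the rest, was 0.932 in mRNA exons and 0.215 in introns and outside genes together, and Zelen's exact test for unequal odds ratios gave p = 4.7e-09 (two-sided). This test too counts interactions as independent, although they come from 19 and 52 shared places. It was not repeated with 1 interaction per place. For interactions with no seed match the odds ratios were 1.87 in mRNA exons and 2.40 in the others, and Zelen's exact test found no difference between them (p = 0.35). In mRNA exons interactions with no seed match made up 24 of 124 interactions in shared places (19.4%, 13.4 to 27.2) and 11.4% of the rest.

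**Figure D2:**
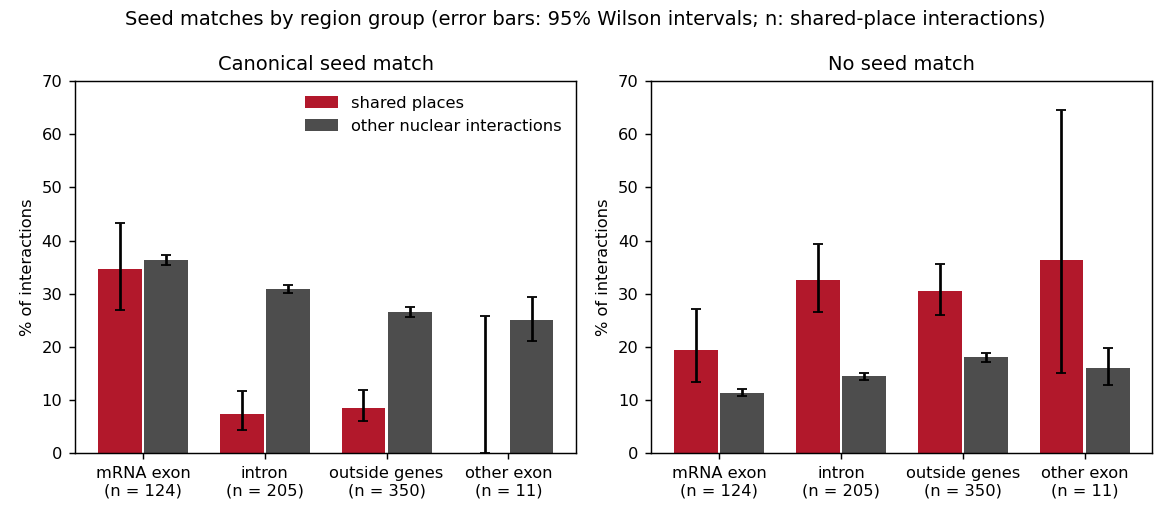
Percentage of interactions with a canonical seed match (left) and with no seed match (right) by region group, in shared places and in all other nuclear interactions, with 95% Wilson intervals. The canonical bars are level in mRNA exons (34.7% and 36.3%) and far apart in introns (7.32% and 30.9%) and outside genes (8.57% and 26.5%).

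By the number of miRNAs at a place, the share of canonical interactions did not decline steadily. It was 30.2% at places with 1 miRNA, 41.7% with 2, 39.2% with 3 and 41.2% with 4, then 10% with 5, 19.3% with 6, 14.1% with 7, 23.9% with 8, 8.96% with 9 and 9.22% with 10 or more. Places with 2 to 4 miRNAs were thus higher than places with 1, and places with 5 or more were lower. At places with 2 to 4 miRNAs, 49.2% to 57.6% of interactions were in mRNA exons. The share was also higher with 2 miRNAs than with 1 within mRNA exons (44.7% and 34.5%). The same held within introns and outside genes (39.4% and 28.6%). Within introns and outside genes the share was 30.4% at places with 4 miRNAs (31 of 102) and 1.67% at places with 5 (1 of 60). Within mRNA exons it was 51.7% with 4 (61 of 118) and 32.0% with 5 (8 of 25).

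**Figure D3:**
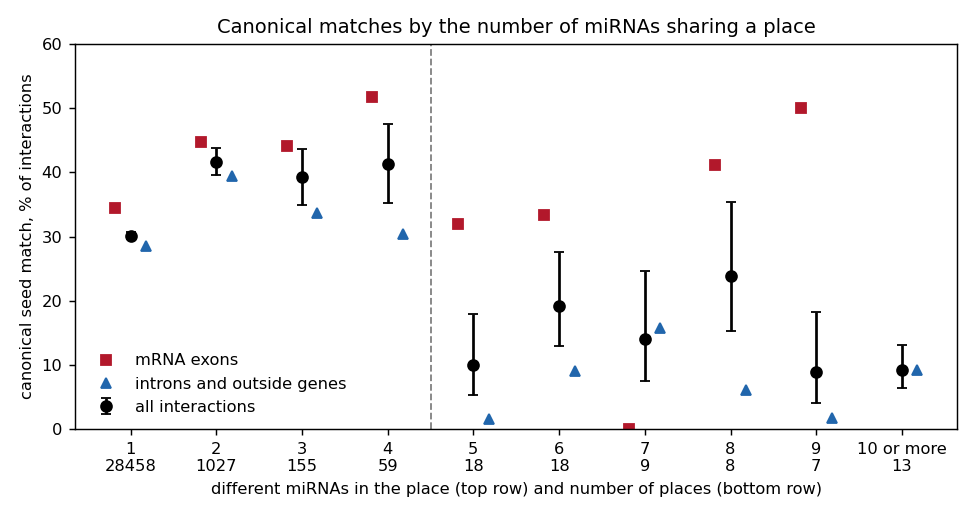
Percentage of interactions with a canonical match by the number of different miRNAs at a place, for all nuclear interactions (circles, 95% Wilson intervals), mRNA exons (squares) and introns and outside genes (triangles). The dashed line marks the limit of at least 5 miRNAs, to the right of which the circles lie between 8.96% and 23.9%.

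The place with the most miRNAs was in an intron of HFM1, a helicase gene of meiotic recombination (hg18 as listed, chr1:91625316-91625737, minus strand). It had 54 interactions with 36 miRNAs and 100 reads, of which 4 interactions were canonical, 33 had another seed match and 17 had none. The 54 regions began at 48 different 5′ ends, with no more than 2 at any of them. Reads were uneven, as miR-18a-3p alone had 18 and miR-125a-5p had 14, while 44 of the 54 interactions had 1 read. These most-read duplexes are shown with the bases predicted to pair in capitals, since both paired extensively outside the seed as well.
miR-125a-5p at HFM1: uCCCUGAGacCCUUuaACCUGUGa
miR-18a-3p at HFM1: acUGCCCUaagUGCUCCuUCUGg
miR-125a-5p had an 8mer and a minimum free energy of −33.7, and miR-18a-3p an offset 6mer and −28.0, where a more negative score stands for a more stable predicted duplex. The canonical matches of miR-18a-3p and miR-874 at HFM1 began at the same base.

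The second place was in an intron of PDE3A, a phosphodiesterase gene (chr12:20595630-20595796, plus strand), with 28 interactions, 26 miRNAs and 68 reads. Here 2 interactions were canonical, both offset 6mers, of miR-191-5p and miR-197-3p. miR-574-3p had 18 of the reads (26.5%) with a bulged 7mer-A1 match and a free energy of −35.2. The bases of miR-574-3p predicted to pair are in capitals and run through most of its length.
miR-574-3p at PDE3A: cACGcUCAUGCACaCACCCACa
Other introns had smaller places. SLCO5A1, an organic anion transporter gene, had 18 interactions with 16 miRNAs, 2 of them canonical. PID1, which encodes a phosphotyrosine-interacting protein, had 14 interactions, 0 canonical and 8 without a seed match.

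Several places lay next to each other. On chromosome 16, 5 intergenic places formed a stretch of 1603 bases (chr16:33870000-33871603, plus strand) with 103 interactions, 58 miRNAs and 179 reads, which is 14.9% of all interactions in shared places. Of these, 11 were canonical (10.7%) and 28 had no seed match. At 1 of the 5, the family members miR-15a-5p, miR-16-5p and miR-424-5p, which share the seed AGCAGCA, had offset 6mers at the same position with 2, 4 and 1 reads. On chromosome 2, 7 places in an intron of ANKRD30BL covered 1524 bases (chr2:132728724-132730248, minus strand) with 69 interactions, 48 miRNAs, 119 reads and 5 canonical matches (7.25%), and 3 intergenic places followed on the same strand (chr2:132753956-132755164) with 21 interactions, 1 of them canonical. In 1 ANKRD30BL place, miR-25-3p and miR-92a-3p had 11 reads each, both with a mismatched 8mer. RefSeq (GRCh38.p14) lists within ANKRD30BL the pseudogenes RNA5-8SP5, RNU6-1132P and LOC110467533 and the miRNA gene MIR663B, the first named for 5.8S ribosomal RNA and the next for U6 snRNA. It also lists RN7SKP29 within SLCO5A1, RN7SKP283 within PID1, both named for 7SK RNA, and the U2 snRNA gene RNU2-2 within WDR74, another gene with a shared place. Of the 28 gene symbols at shared places, 9 held such a gene or pseudogene of a structural RNA in RefSeq and 19, HFM1 and PDE3A among them, held none. SNORD29, itself a snoRNA gene, counts among the 19. The share among all genes with interactions was not counted, so 9 of 28 is not a result about shared places. As RefSeq uses another build than the table, it was not tested whether the shared places coincide with the structural RNA genes and pseudogenes. Copies of structural RNAs that RefSeq does not list as genes were not looked for, at HFM1 and PDE3A or anywhere else. Without the 15 places in the chromosome 2 and 16 stretches the canonical difference was −16.9 points (−19.7 to −13.5).

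Of the other places outside genes, the largest was at chr17:30502217-30502486 (minus strand), upstream of a gene by the annotation, with 26 interactions, 24 miRNAs and 32 reads, of which 4 were canonical and 9 in class 4. A place on chromosome 11 (chr11:84872688-84872867) had 13 interactions with 12 miRNAs and 0 canonical matches. Smaller ones with 9 or 10 miRNAs, at chrX:108184364-108184514, chr5:71182519-71182746, chrY:10645261-10645524, chr19:23975437-23975611 and chr8:67450025-67450104, had between 9 and 11 interactions each, of which 1, 0, 1, 0 and 0 were canonical. On chromosome 4 (chr4:66825157-66825278) miR-1269a had 10 of 15 reads, with an 8mer and the lowest free energy among the interactions with at least 5 reads (−43.7), whereas the other 5 miRNAs there had 1 read each and no canonical match. RefSeq, in another build, lists miR-1269a itself on chromosome 4. Whether this place coincides with the gene of miR-1269a was not tested. Over all shared places outside genes, 17 of 37 held at least 1 canonical interaction, as did 8 of 15 intronic and 16 of 19 mRNA exon places. Over all regions, 41 of 73 shared places did (56.2%), beside 42 of 59 places with exactly 4 miRNAs (71.2%). These counts depend on the number of interactions at a place.

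The 19 mRNA exon places included genes of secreted liver proteins. AFP, the fetal plasma protein alpha-fetoprotein, had 3 places in coding sequence with 8, 7 and 6 miRNAs, of which 4, 0 and 2 interactions were canonical. ALB, serum albumin, had 2, and at the larger (chr4:74499624-74499773) 6 of 8 interactions were canonical, by miR-182-5p, miR-103a-3p, miR-16-5p, miR-96-5p, miR-17-3p and miR-503, each with 1 read. APOB, the main apolipoprotein of low-density lipoproteins, had 5 interactions, of which only that of miR-122-5p, the abundant liver miRNA, was canonical (7mer-m8). Together these genes had 6 places and 40 interactions, 15 of them canonical (37.5%). They were 3 of the 18 genes with interactions in a list of 20 secreted hepatocyte proteins (16.7%), while 0.396% of all genes with interactions had a shared place. The 18 genes had 219 interactions. Shares of genes, here and for the other lists below, were not matched for interactions per gene.

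In 3′UTRs the pairing was mixed. At TNRC6A, which encodes a GW182 protein that works with AGO in silencing, all 6 interactions were canonical (chr16:24742725-24742898, 11 reads). miR-374a-5p and miR-374b-5p had 8mers at 1 position with 4 and 2 reads, miR-17-5p and miR-106b-5p 6mers at another with 1 read each, miR-652-3p an 8mer with 2 reads and miR-26a-5p an 8mer with 1. The predicted duplexes of the 5 with a known sequence are shown with paired bases in capitals, as the only place where every miRNA had a canonical match.
miR-106b-5p at TNRC6A: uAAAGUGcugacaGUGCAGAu
miR-17-5p at TNRC6A: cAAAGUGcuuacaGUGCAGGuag
miR-26a-5p at TNRC6A: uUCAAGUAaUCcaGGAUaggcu
miR-374b-5p at TNRC6A: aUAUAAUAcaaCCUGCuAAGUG
miR-652-3p at TNRC6A: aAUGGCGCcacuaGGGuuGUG
At MSMO1, a gene of cholesterol synthesis, 5 of 10 interactions were canonical, and miR-17-5p, miR-20a-5p and miR-106b-5p, which share the seed AAAGUGC, had a 7mer-m8 at the same base with 4, 1 and 1 reads. At TGFBR2, a receptor for TGF-beta, 3 of 5 were canonical, among them 8mers of miR-17-5p and miR-93-5p at the same base. At TXNIP, the thioredoxin-interacting protein gene, miR-17-5p and miR-106b-5p shared a 7mer-m8 position. The 2 places of IGF2, an imprinted growth factor gene, had 1 of 10 and 0 of 6 canonical interactions, and HMGCS1, which acts early in cholesterol synthesis, had 1 of 5, by miR-29b-3p. Elsewhere in mRNA exons, PEG10, an imprinted gene derived from a retroelement, had 2 of 6 canonical at each of 2 places, RPLP1, a ribosomal stalk protein gene, had 3 of 8, and the 5′UTR place of FTL, the ferritin light chain, had 0 of 6. The 2 places in noncoding exons, MALAT1 with 6 interactions and SNHG1/SNORD29 with 5, had 0 canonical matches.

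**Figure D4:**
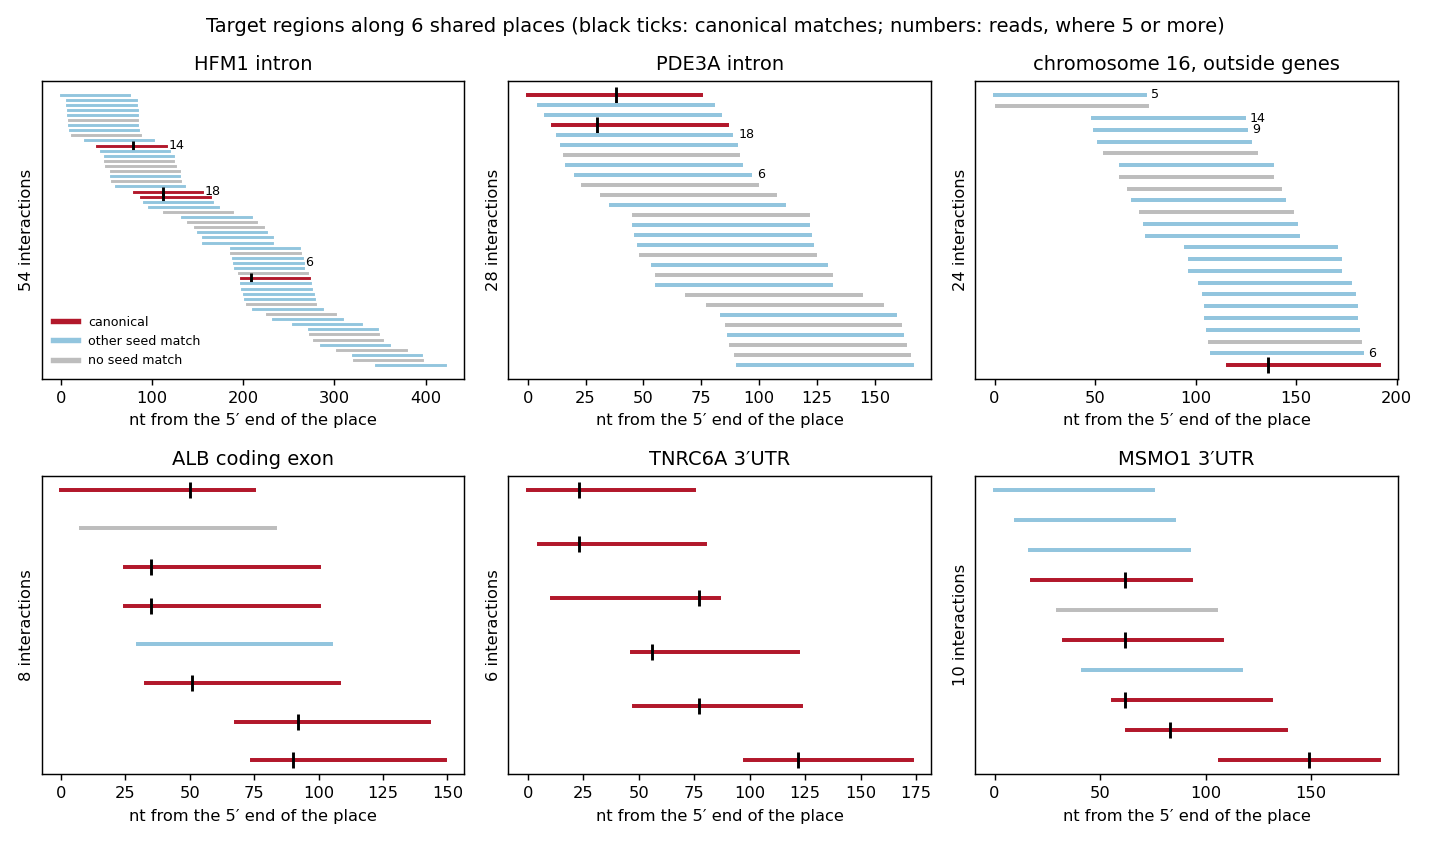
The 75-nt target regions at 6 shared places by distance from the 5′ end of the place, one line per interaction, coloured by seed match, with canonical matches as black ticks and read numbers printed where 5 or more. At TNRC6A and MSMO1 ticks of different miRNAs stand at the same distance, whereas at HFM1, PDE3A and the chromosome 16 place most lines have no tick.

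Canonical matches of several miRNAs at the very same base occurred at 12 positions in the shared places and took in 27 of the 88 canonical interactions. Of the 12 positions, 7 lay in mRNA exons, 3 outside genes and 2 in introns. The miR-17 family (miR-17-5p, miR-20a-5p, miR-93-5p and miR-106b-5p) accounted for 6 of them. Identical 5′ ends, which mark the ligation point, were shared by different interactions in 136 of 690 cases in shared places (19.7%) and in 96 of the 31251 others. Since overlap made the places, this is a description only.

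In the predicted duplexes, where seed pairing was forced if a seed match was present, the same contrast appeared base by base. The values within the seed thus largely restate the seed matches and add no separate support. In introns and outside genes, 66.0% of seed bases were paired in shared places and 74.8% elsewhere, and all 7 were paired in 7.57% of interactions in shared places and 23.9% elsewhere. At base 2 of the miRNA, 40.7% were paired in shared places and 56.0% elsewhere. Just beyond the seed the order turned, with 68.8%, 68.6% and 69.4% paired at bases 9, 10 and 11 in shared places and 58.3%, 58.1% and 57.8% elsewhere. From base 14 to base 19 shared places were lower again, for example at base 18 with 66.2% in shared places and 71.8% elsewhere. In mRNA exons the values at bases 9 to 11 were 54.0%, 53.2% and 55.6% in shared places and 56.9%, 57.6% and 58.7% elsewhere, and 21.8% of interactions in shared places had all 7 seed bases paired, against 28.3% elsewhere. Seed pairing was lower there too, with 73.96% of seed bases paired in shared places and 78.35% elsewhere, and the widest seed gap at base 5 (70.2% and 84.8%). These profiles were looked at after the seed results were known and are given with no test.

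**Figure D5:**
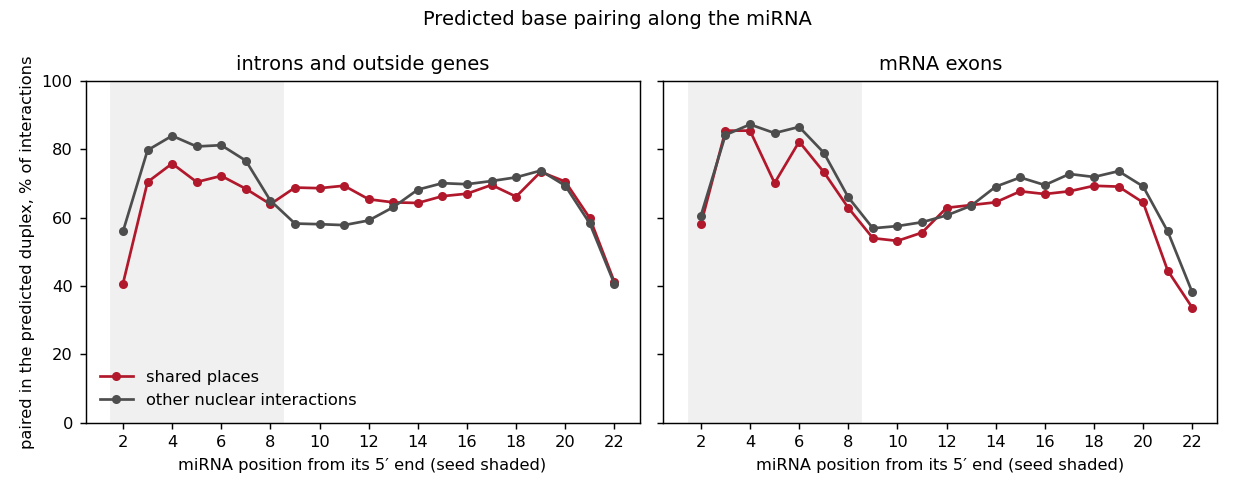
Percentage of interactions in which each miRNA base was paired in the predicted duplex, in shared places and in all other nuclear interactions, for introns and outside genes (left) and mRNA exons (right), with the seed shaded. On the left the shared places lie below the others within the seed (40.7% and 56.0% at base 2) and above them at bases 9 to 11. On the right they lie below the others at most seed bases, most at base 5 (70.2% and 84.8%), and also at bases 9 to 11.

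Duplexes in shared places were predicted to be slightly less stable than those of the same miRNA elsewhere. Among miRNAs with at least 20 other nuclear interactions, the free energy differed from the median of that miRNA elsewhere by a median of 1.20 in shared places (633 interactions), where a positive value is less stable, and by 0 in the rest. Of the interactions in shared places, 61.8% were less stable than that median, and 49.4% of the others were. Among canonical interactions alone this median difference was −1.60 in shared places and −2.30 elsewhere, with median energies of −22.0 and −22.2. Among interactions that were not canonical it was 1.4 in shared places and 1 elsewhere, and 66.2% and 59.4% were less stable. The median of each miRNA took in canonical and other interactions, so the values for all interactions are not separate from the share of canonical matches.

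Interactions in shared places were found by more reads. At least 2 individually cloned reads supported 141 of 690 (20.4%, 17.6 to 23.6) in shared places and 4.18% of the others, and at least 5 reads supported 22 (3.19%) and 0.374%. The excess was seen in mRNA exons (18.5% in shared places, 6.20% elsewhere), introns (24.4% and 3.13%) and outside genes (19.1% and 3.24%). Among interactions with 2 to 4 reads, 27 of 119 were canonical in shared places (22.7%, 16.1 to 31.0) and 52.7% elsewhere, and among those with 1 read 10.02% and 30.2%. With at least 2 reads required, the canonical difference was −29.3 points (−36.1 to −21.2, adjusted p = 6.2e-11, Fisher's exact test). Places with 4 miRNAs, just outside the rule, had 401 reads for 240 interactions, and those with 3 had 647 for 469. Shared places had 1035 for 690, and those with exactly 5 miRNAs 110 for 90. More reads per interaction were thus not particular to shared places. The part of reads in the number of miRNAs found was not tested. Besides those of HFM1, PDE3A, ANKRD30BL and chromosome 4 given above, the interactions with most reads were those of miR-92a-3p (14 reads) and miR-27a-3p (9 reads) at a chromosome 16 place. In mRNA exons they were those of miR-320a at FTL (7 reads, a mismatched offset 6mer), miR-423-3p at RPLP1 (7 reads, a 6mer) and miR-122-5p at AFP (5 reads).

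miR-17-5p had the most interactions in shared places, 39 at 32 places, which was 1.59% of its nuclear interactions (1.17 to 2.17), against 2.16% for all miRNAs together. Of the 39, 6 were canonical (15.4%), against 43.3% of its other nuclear interactions. The difference ran the same way for all 15 miRNAs with most interactions. Among miRNAs with fewer interactions in shared places it did not always, and it was reversed for miR-106b-5p and miR-125a-5p, for example. For miR-122-5p, which is characteristic of the liver, the shares were 5 of 19 (26.3%) in shared places and 48.6% elsewhere, for miR-16-5p 3 of 22 (13.6%) and 38.6%, and for miR-320a 1 of 21 (4.76%) and 33.9%. miR-19a-3p (27 interactions), miR-194-5p (23), miR-21-5p (20), miR-30a-5p (19), miR-196a-5p (16) and miR-92a-3p (16) had 0 canonical matches in shared places, and 14.9%, 24.0%, 16.9%, 20.4%, 23.4% and 27.0% elsewhere. Stratified by miRNA, so that each was compared with itself, the canonical difference over all miRNAs was −17.8 points and that for no seed match 15.1 points. miR-196a-5p and miR-181b-5p had the largest proportions of their nuclear interactions in shared places among the 15 (5.14%, 3.19 to 8.19, and 4.86%, 2.92 to 7.99).

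Of the other gene groups listed, RPLP1 and RPS6KA3, whose symbol begins like those of ribosomal proteins but which encodes a signalling kinase, were the members of the translation list with a shared place, of 95 genes with interactions (2.11%, beside 0.396% of all genes). Among 91 noncoding RNA genes there were 4 (4.40%), MALAT1, SNHG1, SNORD29 and MIR374B, at 3 places, and among 10 genes of cholesterol and fatty acid synthesis there was 1 (HMGCS1). MSMO1 also belongs to that pathway but was not in the list. None of 218 ZNF genes, 37 chaperone, 27 histone and 14 cytoskeleton genes with interactions had a shared place, which at 0.396% of all genes is not a result about these lists.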

How the data were processed

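Reads of 31 Huh-7.5 libraries were handled by the authors with CASAVA 1.8.2 and aligned to hg18 by Bowtie (version not given in the sources used here). Chimeric reads had to map to a single place, PCR duplicates were collapsed, and reads of the same miRNA that overlapped were joined. The authors deposited 1 table pooled over all libraries, so the depth per library cannot be set beside an interaction. Its N column is a raw count of cloned reads, and its free energy a deposited score from RNAhybrid, for which the header names no unit and the study's text uses kcal/mol. Positions are as listed.

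Interactions were merged into places, each counted once. Shares were compared by two-sided Fisher's exact tests and odds ratios between regions by Zelen's exact test, with 7 p-values adjusted by Benjamini–Hochberg (threshold 0.05), in Python 3.11.15 with pandas 2.3.3, numpy 2.4.6, scipy 1.17.1 and statsmodels 0.14.6. Plots used matplotlib 3.10.9. Merging and tests were checked on simulated data. The places, lists and tests were chosen with earlier results of these data known. Places named were the 20 with most miRNAs and those in genes with at least 2 shared places, and miRNAs the 15 with most interactions and those canonical at a named place. Other places, miRNAs and genes were named after their values were seen. Stretches joined shared places less than 5000 bases apart. Alternatives changed the limit on miRNAs, the overlap, the interactions kept and their weights.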

Additional observations from a re-analysis of the deposited data

Results flagged for a closer look

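Canonical pairing in shared places differed between kinds of region. The odds ratio for a canonical match, shared places over the other nuclear interactions, was 0.932 in mRNA exons (43 of 124 interactions in shared places, 34.7%, against 36.3%) and 0.215 in introns and outside genes (45 of 555, 8.11%, against 29.1%). Zelen's exact test of unequal odds ratios gave p = 4.7e-09 (two-sided), with interactions counted as independent. The split by region was made after the values had been seen, and its cause was not tested.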

How the results depend on the processing

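Of 87 alternative values, 78 were unchanged, meaning the same side of the threshold with no called difference turned round, a read-weighted value within the interval of the unweighted one, or a number of places within 1.5 times. The 3′UTR difference, not called with at least 5 miRNAs, lay on either side of 0. The number of shared places was 132 with at least 4 miRNAs and 37 with at least 7. With at least 4 miRNAs the 3′UTR share was 5.97 points higher in shared places (adjusted p = 0.046, exact test), the opposite direction to the −0.526 points with at least 5. The intron difference missed the threshold with at least 7 miRNAs (−14.4 points) and among places with a gene symbol (−15.9 points), where deep intergenic places cannot be counted. The class 4 difference missed it with 1 interaction per place (2.72 points). Weighted by reads, the canonical difference was −14.6 points. Among alternatives chosen after seeing the data, mRNA exons alone gave a canonical difference of −1.62 points and a class 4 difference of 2.40 points, both past no threshold. The cause of these changes was not tested. No paired analysis was possible because the table pools all libraries and carries no replicate number, so leaving out a replicate was not possible either. Most interactions rest on 1 read.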
